A study of Mus musculus with 2 samples.

Results

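The 33 genes described here act in ferroptosis, glutathione metabolism and iron handling. They were taken by symbol from the 31053 features of the deposited tables, and all 33 were found. No limit on their values was used to pick them, but earlier results of these data were known when they were chosen. They are given in 3 groups by role: 14 genes of lipid peroxide and glutathione defence, 7 lipid enzymes and regulators that favour ferroptosis, and 12 genes of iron storage, release and transport. The data are droplet single-cell RNA counts from the hepatocellular carcinoma (HCC) region of the liver of mice of the C57BL/6 strain, recorded as 17 months old, after 15 months on CD-HFD. The control library and the FABP5 inhibitor library share strain, diet, age and tumour region, and the inhibitor was given from month 13. FABP5 is a lipid-binding protein that carries fatty acids inside cells. The labels name 1 library for each group, and neither how many mice each library holds nor what the control mice received is given in the sources used here. The tissue was digested with collagenase and an Annexin V kit served to enrich live cells. With 1 library per group no difference between the groups could be tested. Each ratio below compares these 2 libraries, and its 95% interval covers counting error only.

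Ferroptosis is a form of cell death driven by iron-dependent peroxidation of membrane phospholipids. The antiporter built from Slc7a11 and Slc3a2 imports cystine, glutamate-cysteine ligase (Gclc, Gclm) and Gss turn it into glutathione, and Gpx4 uses glutathione to reduce lipid hydroperoxides. Acsl4 and Lpcat3 load polyunsaturated fatty acids into phospholipids, which makes them easier to oxidise. In the liver, hepatocytes store iron in ferritin, while Kupffer cells, the resident macrophages, recover iron from haem through Hmox1 and export it through ferroportin (Slc40a1).

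Iron-responsive elements are short RNA hairpins bound by the regulatory proteins Aco1 and Ireb2, which block translation when the hairpin lies in the 5' UTR and protect the transcript when it lies in the 3' UTR. They are shown because ferritin, ferroportin and the transferrin receptor are among the iron genes that differed, although others such as Hmox1 differed too. The counts used here measure transcripts and not translation. A search of mouse transcripts (GRCm38) for a CAGTGN loop whose last base is not G, with a bulged C, 5 upper and 3 lower stem pairs, found such an element in 18 of 21875 protein-coding genes (0.0823%) and in 4 of the 33 members, which held 7 elements. Elements whose stem or loop departs from this rule are missed, so a member without a match may still hold an element. The loop is in capitals.
Fth1, 5' UTR: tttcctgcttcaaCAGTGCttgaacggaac
Ftl1, 5' UTR: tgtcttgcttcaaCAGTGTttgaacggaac
Slc40a1, 5' UTR: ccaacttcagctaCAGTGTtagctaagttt
Tfrc, 3' UTR, element A: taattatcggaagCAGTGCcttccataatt
Tfrc, 3' UTR, element B: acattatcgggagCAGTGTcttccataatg
Tfrc, 3' UTR, element C: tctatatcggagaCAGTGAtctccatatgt
Tfrc, 3' UTR, element D: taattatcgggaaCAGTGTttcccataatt
The elements lie at chr19:9982731-9982760 (plus strand) in Fth1, chr7:45459779-45459808 (minus strand) in Ftl1 and chr1:45925465-45925494 (minus strand) in Slc40a1. Those of Tfrc lie on the plus strand at chr16:32631218-32631247, chr16:32631597-32631626, chr16:32631662-32631691 and chr16:32631709-32631738.

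Many defence genes are described as targets of Nfe2l2 (NRF2), a transcription factor held in check by Keap1, so the core of its binding motif, TGACNNNGC, was searched on both strands of RefSeq promoters (GRCm38.p6, 250 bases before to 50 after the start). Of 27 members with a promoter entry, 6 held a match (22.2%), beside 13.99% of 27025 genes. The matches are shown in capitals, as TGACNNNGC or, on the opposite strand, as GCNNNGTCA.
Nfe2l2: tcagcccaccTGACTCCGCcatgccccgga
Srxn1: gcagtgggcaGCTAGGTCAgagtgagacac
Gclm: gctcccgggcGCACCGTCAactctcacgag
Txnrd1: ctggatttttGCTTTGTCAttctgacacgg
Trp53: gggagaatccTGACTCTGCaagtccccgcc
Ncoa4: aggcggggcgTGACCTGGCcggtagggtat
These windows lie at chr2:75704884-75704913 (minus strand) for Nfe2l2, chr2:152105542-152105571 for Srxn1 and chr3:122245413-122245442 for Gclm. Those of Txnrd1 (chr10:82859104-82859133), Trp53 (chr11:69580227-69580256) and Ncoa4 (chr14:32165735-32165764) are also on the plus strand. A match describes the letters in the window and not a bound site. Gclc, Gsr, Hmox1, Slc40a1, Slc11a2 and Alox15 had no entry.

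After filtering, 6461 control and 8753 inhibitor cells remained, with a median of 3951 and 6278 UMIs (counted molecules). The libraries shared 29 of their deposited barcodes, 18 among the kept cells. Clustering without the members gave 28 clusters, of which 26 resembled a cell type by its markers, and a class name below means cells like that type. Compared are the 8 classes that held 100 or more cells in each library, and 5 others with 50 or more in each are given beside them as smaller classes. Classical monocytes made up 6.21% of the control and 43.6% of the inhibitor cells (401 and 3820 cells). Most of their control cells lay in cluster 3, led by Serpinb2 (319 and 794 cells), and most inhibitor cells in cluster 0, led by Vcan (82 and 3026). Hepatocytes likewise came from cluster 16 in the control library (221 and 3 cells, led by Cyp2a4) and from cluster 20 in the inhibitor library (2 and 143, led by Rgn and Cyp2e1). The summed level of hepatocyte markers in the 7 compared leukocyte classes was 537 to 2103 UMIs per 1000000 UMIs of the class (CPM) in control and 68.3 to 210.0 CPM in inhibitor cells. With an estimate of hepatocyte RNA subtracted, the same members passed the 1.5-fold limit used below in each of the 7 (none in B cells). The estimate was taken from the named hepatocytes of each library, without cells of unnamed clusters.

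Levels of each gene were compared across classes within a library, since 3' counts do not scale with transcript length. Ranks and the words next class cover the 13 classes with 50 or more cells in each library, and levels in rarer or unnamed cells are given where they would change a rank. The plot of levels by class shows which members are spread evenly and which belong mostly to 1 class.

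**Figure D1:**
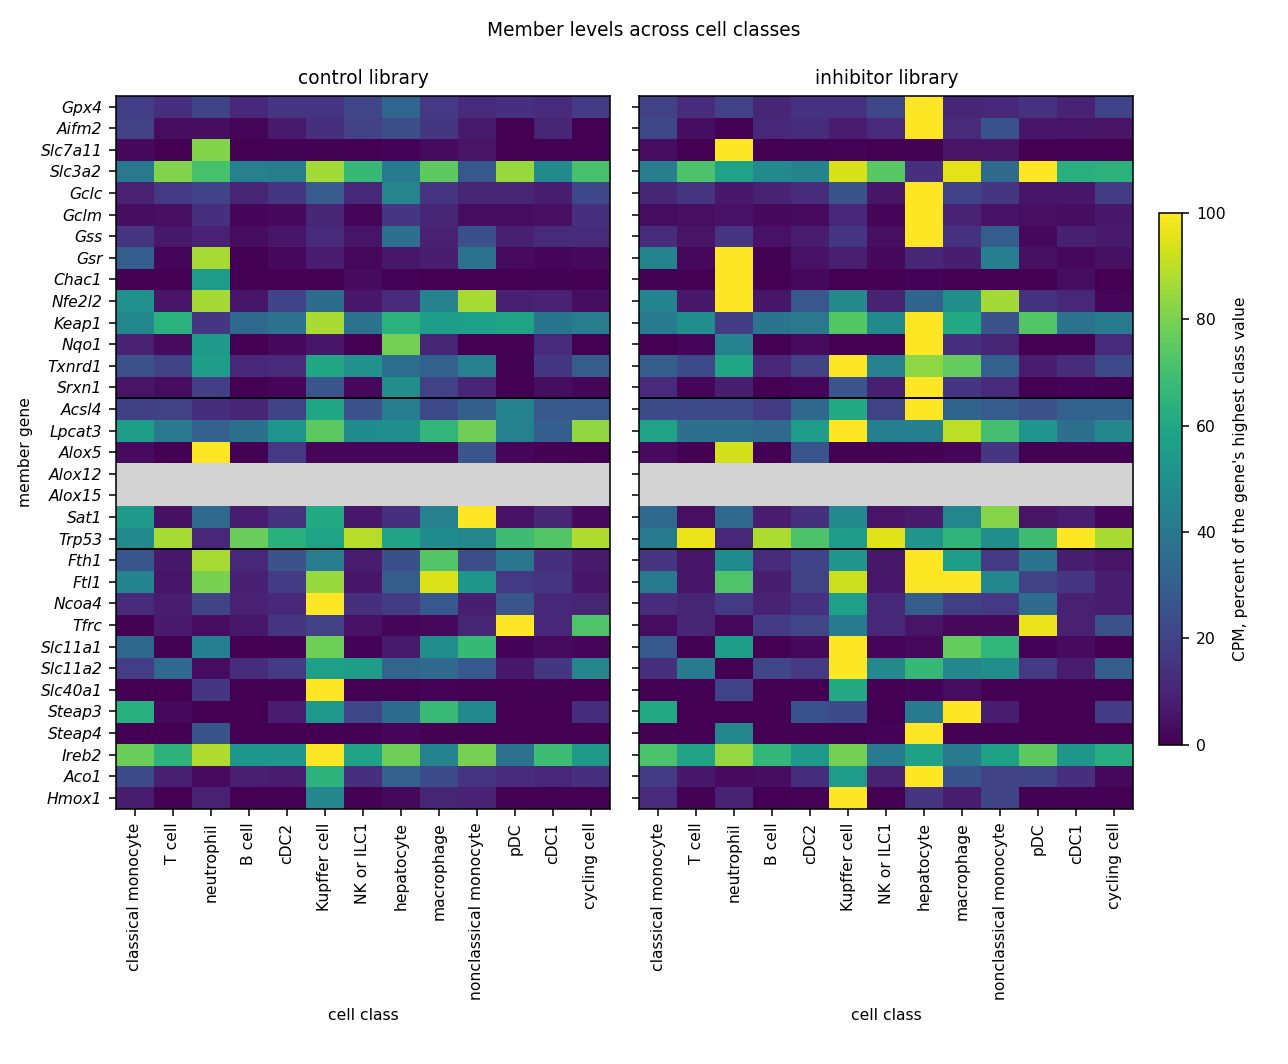
CPM of each member in 13 cell classes of the control library (left) and the inhibitor library (right), as a percent of that gene's highest value over both libraries, with black lines between the 3 role groups. Slc7a11, Gsr, Chac1 and Alox5 are brightest in neutrophils, and Hmox1, Slc40a1, Ncoa4 and Slc11a1 in Kupffer cells. Alox12 and Alox15, with too few UMIs, are grey.

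Neutrophils held the most Slc7a11, the cystine carrier of the antiporter: 1434 CPM in control and 1758 CPM in inhibitor cells, 15.6 and 18.8 times the next class. Among rarer cells, the 49 control mature dendritic cells held 122 CPM of it, above the next class. Slc3a2, its partner chain, was instead spread over the 13 classes, and the intervals of its top 2 overlapped in both libraries. Rarer plasma cells held more Slc3a2 than any of the 13, at 525 and 363 CPM (622 and 120 UMIs). Chac1, which breaks glutathione down, was also highest in neutrophils, at 42.3 and 76.5 CPM against 2.18 and 2.86 CPM in the next class. Plasma cells lay between, at 22.8 and 39.3 CPM on 27 and 13 UMIs. Gsr, which regenerates reduced glutathione, had 1295 and 1491 CPM there, 2.30 and 2.24 times the next class. The lipoxygenase gene Alox5 stood at 129 and 121 CPM in neutrophils and at 34.0 and 34.2 CPM in the next class of each library.

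Kupffer cells held the most Hmox1 (914 and 1970 CPM), at 4.54 and 4.92 times the next class. Their Slc40a1 level was 1739 CPM in control and 1054 CPM in inhibitor cells, with neutrophils next at 273 and 348 CPM. The ferritin receptor Ncoa4 (228 and 129 CPM) and the phagosomal metal carrier Slc11a1 (283 and 362 CPM) were likewise highest in Kupffer cells, although for Slc11a1 in the control library the interval overlapped that of nonclassical monocytes. Tfrc, the transferrin receptor, was highest in plasmacytoid dendritic cells, at 92.1 and 89.5 CPM. In the control library their interval overlapped that of cycling cells (66.7 CPM).

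Hepatocytes held the most Gpx4 of the 13 classes, at 661 CPM in control and 2036 CPM in inhibitor cells, 1.56 and 4.60 times the next class. Within the 13 classes they were also highest for Gclc, Gclm, Gss, Srxn1 and Aifm2 (FSP1, a reductase that recycles a lipid-soluble antioxidant), but the intervals of the top 2 classes overlapped for all 5 in the control library and for none of them in the inhibitor library. In the control library the 27 duct-like or tumour-like epithelial cells were above hepatocytes for Gpx4 (1251 CPM), Gclc (227.5 CPM), Gclm (444.5 CPM), Gss (64.75 CPM) and Aifm2 (29.75 CPM). Control cells of unnamed clusters, pooled, were above hepatocytes for Gpx4 (1012 CPM) and for these 5 genes as well, among them Srxn1 at 54.0 CPM, and mature dendritic cells were above them for Gclc in both libraries (142 and 200.6 CPM). Fth1, the ferritin heavy chain, was highest in neutrophils in the control library (20900 CPM) and in hepatocytes in the inhibitor library (24090 CPM). Ftl1, the light chain, was highest in macrophages in both (14100 and 14900 CPM), with an inhibitor interval that overlapped that of hepatocytes. For Trp53, Ireb2, Lpcat3 and Keap1 the intervals of the top 2 classes overlapped in both libraries. Alox12 had 4 and 7 UMIs over all cells. Alox15 had none in the control library, where 3 UMIs would be 0.0842 CPM, and 4 in the inhibitor library, all in basophil-like or mast-like cells.

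A member was counted as higher or lower when its CPM differed by at least 1.5-fold and the class held at least 50 of its UMIs over both libraries. Of the 33 members, 30 reached that number in at least 1 compared class, and 8 did in all. Alox12, Alox15 and Nqo1 did so in none. In classical monocytes 3 of 27 measured members were higher and 2 lower, beside 9.96% and 14.1% of all measured genes. Kupffer cells had 5 of 25 higher and 2 lower, beside 11.9% and 13.3%. In type 2 conventional dendritic cells (cDC2) 6 of 20 were higher and none lower, beside 10.3% and 6.57%. Neutrophils had 2 of 19 higher and 3 lower, beside 4.45% and 18.2%. T cells had 1 of 21 higher and none lower (2.63% and 7.65% of all genes), NK cells or ILC1 had 1 of 11 higher and none lower (4.39% and 5.88%), and B cells had none of 12 either way (3.02% and 5.2%). In the leukocyte classes other than B cells a larger share of members than of all genes was higher, on 1 to 6 members. The share was close to that of all genes in classical monocytes (3 of 27, beside 9.96%). In T cells and in NK cells or ILC1 it rested on 1 member each. A smaller share of members than of all genes was lower in all 7. Whether these shares differ from those of all genes was not tested. In hepatocytes 17 of 22 were higher and 2 lower, beside 39.4% and 23.6% of all genes, with a median log2 ratio of 1.23 for the members and 0.29 for all genes.

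**Figure D2:**
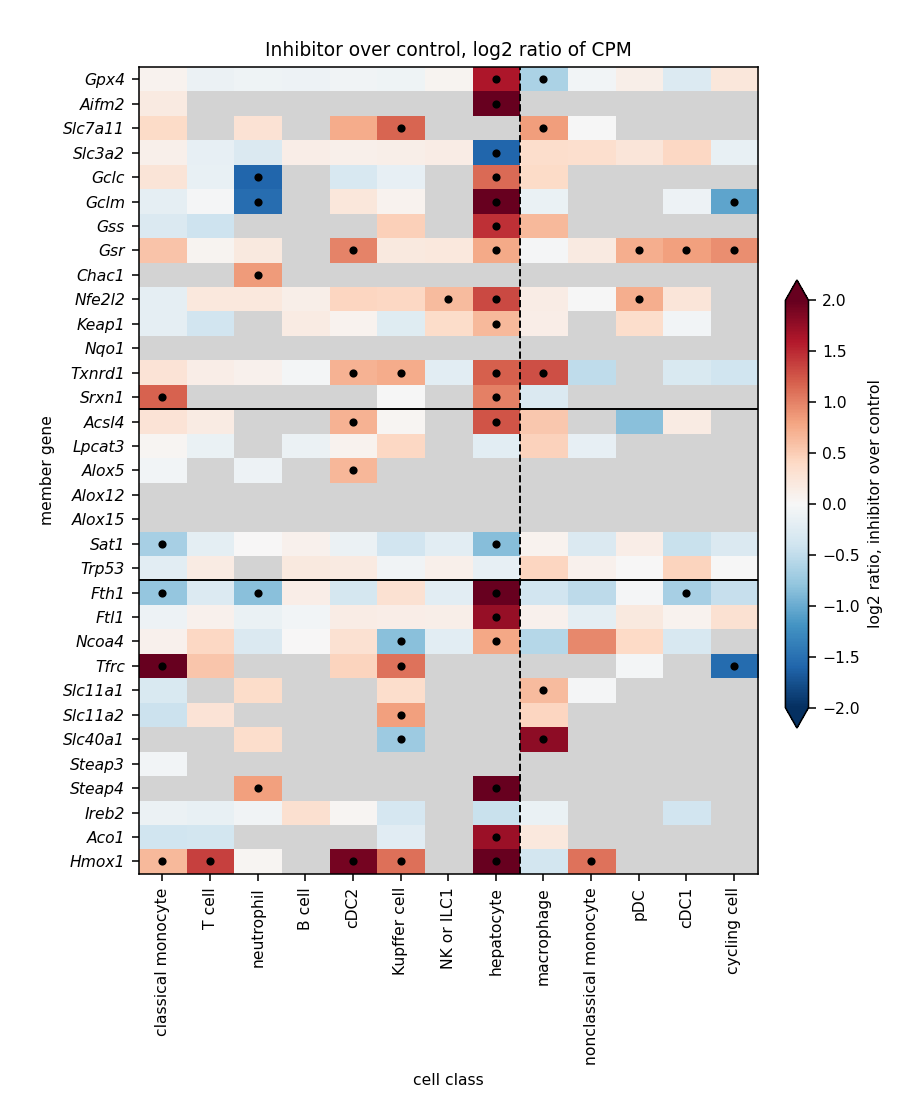
Log2 ratio of CPM, inhibitor over control, of each member in 8 compared classes (left of the dashed line) and 5 smaller ones, with red for higher and blue for lower in the inhibitor library and colours ending at 2. Dots mark members that differ by at least 1.5-fold with an interval that leaves out no difference. Hmox1 is red with a dot in 6 of the 8 classes where it was measured, and the hepatocyte column holds the most dots.

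Across the 8 compared classes, Hmox1 passed the fold as higher in 5 of the 6 classes that held enough of its UMIs. Gsr was above its control level in all 7 classes where it was measured, and passed the fold in 2. Fth1 was measured in all 8, with 1 higher, 2 lower and ratios below 1 in 5. Of the 44 values past the fold, 43 had an interval that left out no difference. Lpcat3, Trp53, Ireb2, Slc11a1 and Steap3 passed in no compared class.

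Among the defence genes, Gpx4 itself was nearly level in leukocytes. In classical monocytes it stood at 374 CPM in control and 394 CPM in inhibitor cells, and in neutrophils at 417 and 394 CPM. T cells had 281 and 259 CPM, and Kupffer cells 311 and 294 CPM. Its ratio stayed within 1.5-fold in all 7 compared leukocyte classes. In the 56 inhibitor cells of the smaller macrophage class it was lower, at 219 CPM against 340 CPM (log2 -0.63, interval -0.93 to -0.35).

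The antiporter chain Slc7a11 was measured in 4 compared classes, with ratios above 1 in all. Kupffer cells had 8 UMIs (7.22 CPM) in control and 43 (16.3 CPM) in inhibitor cells, a log2 ratio of 1.17 (interval 0.06 to 2.47). That ratio was -0.29, on 7 and 9 UMIs, when the number of removed doublets was doubled. In cDC2 the levels were 7.89 and 13.3 CPM, past the fold but with an interval of -0.11 to 1.64. Classical monocytes had 46.6 and 60.9 CPM (log2 0.39), and within their cluster 0 the levels were 31.2 and 60.5 CPM (log2 0.95, interval 0.32 to 1.67). Neutrophils, the class richest in it, had a log2 ratio of 0.29. The partner chain Slc3a2 did not pass the fold in any compared leukocyte class.

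The glutathione-making enzymes were lower in neutrophils. Gclc, the catalytic subunit, had 48 UMIs (29.02 CPM) in control and 9 (9.69 CPM) in inhibitor cells, a log2 ratio of -1.58 (interval -2.79 to -0.54). Gclm, the modifier subunit, had 138 UMIs (83.4 CPM) and 27 (29.1 CPM), a log2 ratio of -1.52 (interval -2.17 to -0.92). In the same cells Chac1 was higher, at 42.3 and 76.5 CPM (log2 0.85, interval 0.36 to 1.35), a ratio of 0.29 when no doublets were removed. The neutrophils' summed hepatocyte markers were 2103 CPM in control and 210.0 CPM in inhibitor cells, and their erythroid markers 4222 and 762.5 CPM. With hepatocyte RNA subtracted, the log2 ratio of Gclc was -1.63. That estimate left out the unnamed Gsta1-led control cells described below, whose Gclc level was above that of the named hepatocytes. RNA from such cells was thus not subtracted, and its part in the neutrophil differences was not tested. The neutrophils' own markers summed to 101600 CPM in control and 153500 CPM in inhibitor cells. Macrophage markers in them summed to 1236 and 595.6 CPM, and nonclassical monocyte markers to 1432 and 1800 CPM. Their median mitochondrial share was 1.85% and 0.53%. The part of these measures in the neutrophil differences was not tested either. The median log2 ratio of all genes in neutrophils was -0.11. In the other compared leukocyte classes both subunits stayed within the fold, and Gclm was lower within classical monocyte cluster 3 (25.9 and 14.2 CPM).

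Glutathione reductase, Gsr, was higher in cDC2, with 36.7 CPM in control and 73.2 CPM in inhibitor cells (log2 1.00, interval 0.62 to 1.38). Classical monocyte markers in these cDC2 summed to 2355 and 3531 CPM, their own markers to 1594 and 1188 CPM and mature dendritic markers to 248.5 and 79.2 CPM. The part of these shifts in this and the other cDC2 differences was not tested. Classical monocytes had 446 and 665 CPM, a log2 ratio of 0.58 just under the fold. The ratio differed between their clusters, at 0.12 in cluster 0 and 0.62 in cluster 3, and that difference was not tested. Over all cells the level was 153 and 433 CPM, with 84.2% of the inhibitor library's Gsr UMIs in classical monocytes, which also made up a larger share of that library's cells.

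Of the NRF2 gene Nfe2l2, its inhibitor Keap1 and the described targets Txnrd1, Srxn1 and Nqo1, all but Keap1 and Nqo1 passed the fold in a compared leukocyte class. Nfe2l2 was higher in NK cells or ILC1 (38.2 and 59.5 CPM, log2 0.64, interval 0.02 to 1.28), and its ratio was above 1 in 7 of the 8 classes. In these NK cells or ILC1, classical monocyte markers summed to 335 and 694 CPM and neutrophil markers to 43.7 and 214.6 CPM. Macrophage markers in them went the other way, at 621 and 223 CPM. The part of these markers in the Nfe2l2 difference was not tested. Txnrd1, thioredoxin reductase, was higher in Kupffer cells (89.4 and 149 CPM, log2 0.74, interval 0.41 to 1.07) and in cDC2 (17.8 and 28.7 CPM, log2 0.69, interval 0.13 to 1.27). Srxn1, sulfiredoxin, was higher in classical monocytes, from 14 UMIs (4.73 CPM) to 329 (10.7 CPM), a log2 ratio of 1.18 (interval 0.41 to 2.07). Within cluster 3, which held most control cells, its log2 ratio was 0.56 (interval -0.34 to 1.57), under the fold, and within cluster 0 it was 2.85 on 1 control UMI. Nqo1, a quinone reductase, had 128 UMIs over all control cells and 37 over all inhibitor cells, and 58.6% of the control UMIs lay in cells of unnamed clusters.

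A list of 23 other antioxidant and glutathione genes was counted in the same way. In classical monocytes 3 of 20 measured were higher and 2 lower, in cDC2 4 of 18 were higher and none lower, and in T cells none of 19 was higher and 2 were lower. Kupffer cells had 2 of 19 higher and 2 lower, and neutrophils 1 of 14 higher and 3 lower. Counted in either direction, the shares of the list and of all genes were 22.2% and 16.8% in cDC2, 28.6% and 22.6% in neutrophils and 14.3% and 8.21% in B cells. It was close to that of all genes in T cells (10.5% and 10.3%), classical monocytes (5 of 20, beside 24.1%) and NK cells or ILC1 (9.09% and 10.3%), and below it in Kupffer cells (21.1% and 25.1%). Gch1, which opens tetrahydrobiopterin synthesis, was among the 3 with the largest higher ratio in classical monocytes (50.4 and 107 CPM), cDC2 (22.5 and 62.9 CPM) and Kupffer cells (20.8 and 49.9 CPM). Mgst1, a microsomal glutathione transferase, was higher in neutrophils (236 and 369 CPM) and in cDC2 (9.86 and 24.8 CPM).

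Lipid enzymes that favour ferroptosis differed in few classes. Acsl4 was higher in cDC2, at 18.2 CPM in control and 29.5 CPM in inhibitor cells (log2 0.70, interval 0.14 to 1.27). Alox5 was also higher there, at 21.7 and 34.2 CPM (log2 0.66, interval 0.14 to 1.18). In neutrophils, where Alox5 is most abundant, its log2 ratio was -0.10. None of the lipid enzymes passed the fold in T cells, neutrophils, B cells, Kupffer cells, or NK cells or ILC1.

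Sat1, a polyamine-degrading enzyme known as a target of p53, was lower in classical monocytes, at 1446 and 910 CPM (log2 -0.67, interval -0.71 to -0.62). Within cluster 0 its log2 ratio was -0.35 and within cluster 3 it was -0.24, both under the fold. The 2 clusters differed in level, at 1033 CPM and 1561 CPM in their control cells, and the libraries held them in different proportions. Markers of other myeloid cells were also lower in the class, with macrophage markers summing to 4408 and 1460 CPM and nonclassical monocyte markers to 1355 and 785 CPM. The part of these markers in the classical monocyte differences was not tested. Trp53 itself had log2 ratios of -0.22 in classical monocytes, 0.16 in T cells and -0.07 in Kupffer cells.

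Of 18 other lipid peroxidation genes, 4 of 11 measured were higher and 2 lower in classical monocytes, beside 9.96% and 14.1% of all genes. In T cells 1 of 10 was higher and 3 lower, beside 2.63% and 7.65%. Alox5ap, the partner protein of Alox5, was the only one higher in T cells (4.99 and 8.39 CPM) and in B cells (13.2 and 26.2 CPM). Kupffer cells had 1 of 9 higher and 2 lower, beside 11.9% and 13.3%. Among the lower was Scd1, a desaturase that makes monounsaturated fatty acids, at 150 and 52.5 CPM.

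Iron genes held Hmox1, the member that passed the fold in the most classes, and the most abundant members, the ferritin chains. The ferritin heavy chain Fth1 was lower in classical monocytes, with 6448 CPM in control and 3764 CPM in inhibitor cells (log2 -0.78, interval -0.80 to -0.75). It was lower in neutrophils too, at 20900 and 11710 CPM (log2 -0.84, interval -0.87 to -0.80). The part of the neutrophil marker sums given above in that difference was not tested. Within classical monocyte cluster 0 the log2 ratio of Fth1 was -0.41 and within cluster 3 it was -0.64, so the pooled class value was larger than either. The summed macrophage and nonclassical monocyte markers given with Sat1 were lower in the same cells, and control macrophages held Fth1 at 17650 CPM. Of 13 classes, 9 had a ratio below 1 and 3 a ratio above 1 with an interval that left out no difference. The 3 above were hepatocytes, Kupffer cells (10220 and 12600 CPM) and B cells (2672 and 2924 CPM), the last 2 within the fold.

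The light chain Ftl1 did not follow the heavy chain in these leukocytes. In classical monocytes it had 6700 and 6216 CPM (log2 -0.11), and in neutrophils 11880 and 10820 CPM (log2 -0.13). In cDC2 the light chain ratio was 0.14 while that of the heavy chain was -0.34. Both ferritin genes have processed pseudogene copies, so how reads were shared among the copies is uncertain.

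**Figure D3:**
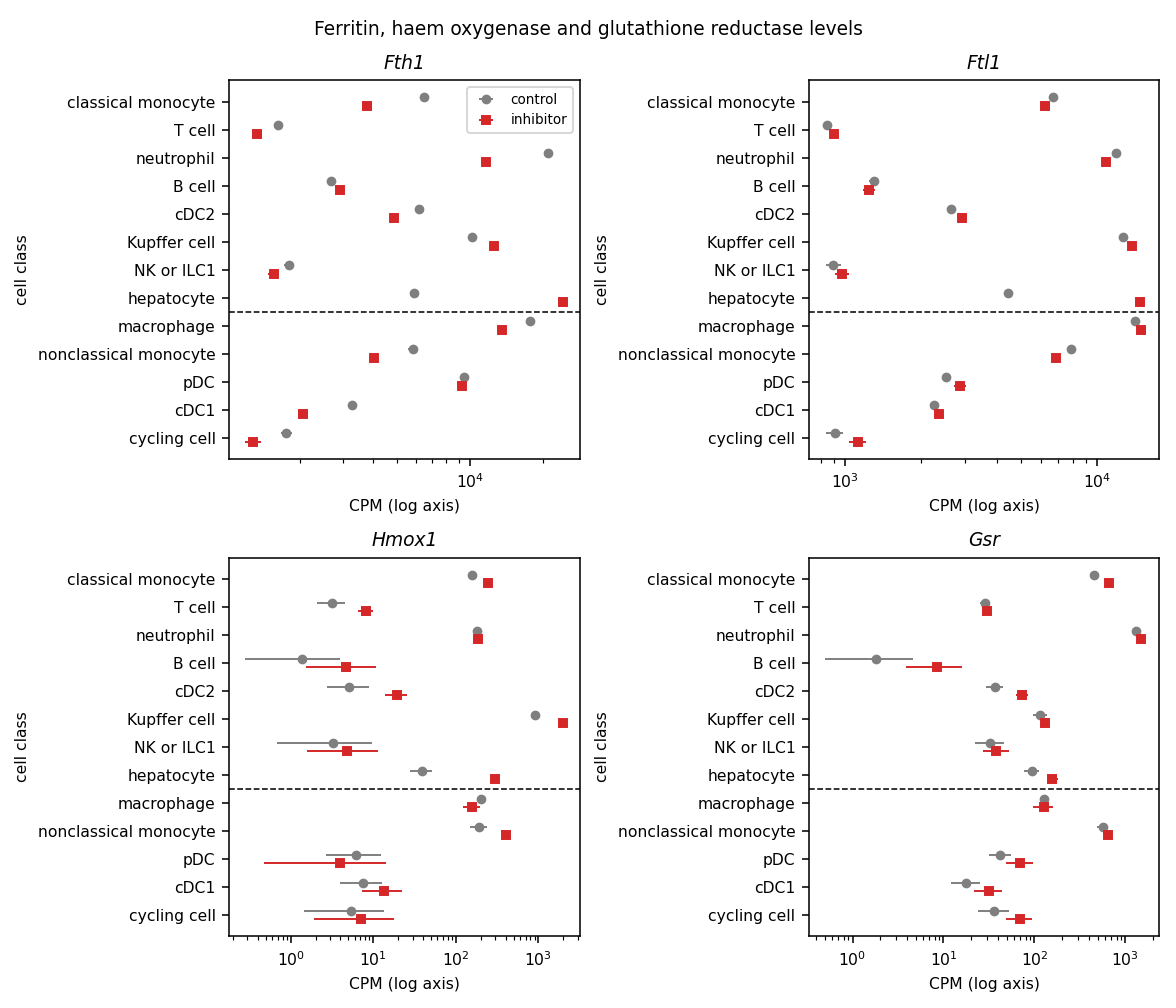
CPM of Fth1, Ftl1, Hmox1 and Gsr in 13 classes, control as grey circles and inhibitor as red squares, on log axes, with bars for exact Poisson 95% intervals and a dashed line before the 5 smaller classes. Fth1 lies lower in the inhibitor library in monocytes and neutrophils and higher in hepatocytes, while Hmox1 lies higher in Kupffer cells, both monocyte classes, cDC2 and hepatocytes.

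Hmox1, haem oxygenase, was higher in Kupffer cells, with 1012 UMIs (914 CPM) in control and 5214 (1970 CPM) in inhibitor cells, a log2 ratio of 1.11 (interval 1.01 to 1.21). In classical monocytes it stood at 155 and 244 CPM (log2 0.65, interval 0.52 to 0.79), with 0.72 and 0.68 within clusters 0 and 3. Nonclassical monocytes, a smaller class, had 189 and 400 CPM (log2 1.08, interval 0.74 to 1.44). In cDC2 there were 13 UMIs (5.13 CPM) and 45 (19.3 CPM), a log2 ratio of 1.91 that was 0.53 when cells needed 600 genes. Macrophages differed in sign, at 201 and 156 CPM (log2 -0.37, interval -0.72 to -0.03), within the fold. Neutrophils had 181 and 186 CPM.

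T cells had 29 Hmox1 UMIs (3.15 CPM) in control and 87 (8.11 CPM) in inhibitor cells, a log2 ratio of 1.37 (interval 0.75 to 2.03). Their cluster 6 had 0 and 10 of these UMIs. Summed Kupffer markers in T cells were 3.36 and 4.85 CPM and summed macrophage markers 352 and 92.3 CPM, and their part in the difference was not tested. After thinning each cell to 1000 UMIs, 0.392% of control and 0.935% of inhibitor T cells had an Hmox1 UMI. B cells, which should lack it, had 0 of 593 in the control (exact interval up to 0.620%) and 0.578% in the inhibitor library, so the T cell shares are near that background. Kupffer cells thinned in the same way had 42.9% (exact interval 33.8% to 52.3%) and 58.2% (50.7% to 65.5%), against 77.2% and 90.8% unthinned. Thinned to 2000 UMIs they had 56.3% (46.2% to 66.1%) and 77.2% (70.2% to 83.25%), intervals that did not overlap. The thinned share of nonclassical monocytes was 9.46% and 23.6%. For classical monocytes it was 13.95% and 12.7%, which goes against their CPM, and no order is read from it.

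Tfrc, Slc11a2 and Slc40a1, genes of iron uptake and export, all passed the fold in Kupffer cells. Larger differences of Tfrc and Slc40a1 in other classes are given below. Tfrc was higher, from 18.1 CPM in the control to 38.2 CPM in the inhibitor library (log2 1.08, interval 0.38 to 1.85). Slc11a2, the endosomal divalent metal carrier, was higher too, at 19.9 and 35.1 CPM (log2 0.82, interval 0.14 to 1.57). Slc40a1, the iron exporter whose element is printed above, was lower, at 1739 and 1054 CPM (log2 -0.72, interval -0.81 to -0.64). Ncoa4, which delivers ferritin to lysosomes, was lower at 228 and 129 CPM (log2 -0.83, interval -1.07 to -0.59). The Kupffer cells' own marker sum was 6692 and 7201 CPM, and their median depth 7844 and 14012.5 UMIs per cell. Macrophage markers in them summed to 45230 and 37140 CPM and platelet markers to 203.2 and 93.33 CPM. Classical monocyte markers summed to 134.5 and 295.8 CPM and cDC2 markers to 46.05 and 176.8 CPM. The part of these measures in the Kupffer cell differences was not tested. The share of Kupffer cells with a Slc40a1 UMI after thinning was 65.55% (exact interval 56.3% to 74.0%) and 59.3% (51.8% to 66.55%), and 0 of 593 and 0 of 346 B cells had it. Thinned to 2000 UMIs it was 84.5% (76.0% to 90.85%) and 68.4% (60.9% to 75.3%), intervals that did not overlap, with B cells at 0.178% and 0.321%.

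In classical monocytes Tfrc rested on 2 control UMIs (0.676 CPM) against 93 (3.03 CPM), a log2 ratio of 2.16 with a wide interval (0.27 to 5.23). Steap4, a metalloreductase, was higher in neutrophils, at 103 and 182 CPM (log2 0.82, interval 0.51 to 1.14). The iron regulatory protein genes Ireb2 and Aco1 stayed within the fold in every compared leukocyte class where they were measured.

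Of 31 other iron genes, more were lower than higher in all 7 compared leukocyte classes. The same held for all measured genes in each of these classes but cDC2. T cells had none of 19 higher and 6 lower (2.63% and 7.65% of all genes), and B cells 1 of 16 higher and 5 lower (3.02% and 5.2%). Classical monocytes had 3 of 20 higher and 5 lower (9.96% and 14.1%), and Kupffer cells 3 of 17 higher and 5 lower (11.9% and 13.3%). Hpx and Trf, plasma proteins that hepatocytes secrete to bind haem and iron, were lower in all 7. Hpx had the lowest ratio of the list in each, for example at 33.5 and 3.16 CPM in classical monocytes and 64.5 and 3.92 CPM in T cells. The summed hepatocyte markers of the same classes were also lower, as given above. Among genes higher in the inhibitor library, Slc39a14, a zinc and iron importer, had 3.38 and 15.6 CPM in classical monocytes, where Lcn2, a siderophore-binding protein, had 23.7 and 56.4 CPM. In Kupffer cells the ferroxidase Cp (16.3 and 50.3 CPM) and the mitochondrial iron carrier Slc25a28 (13.5 and 36.3 CPM) were higher. The haemochromatosis gene Hfe was lower in classical monocytes (103 and 32.3 CPM).

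Hepatocytes differed in the most members, as they did in the most genes overall. Gpx4 was higher, at 661 CPM in control and 2036 CPM in inhibitor cells (log2 1.62, interval 1.51 to 1.74). The light and heavy ferritin chains were higher, Fth1 at 5886 and 24090 CPM (log2 2.03, interval 2.00 to 2.07) and Ftl1 at 4416 and 14790 CPM (log2 1.74, interval 1.70 to 1.79). Hmox1 had 44 UMIs (38.9 CPM) and 434, a level 7.72 times as high and a log2 ratio of 2.95 (interval 2.50 to 3.43). All these values compare cluster 16 with cluster 20, since each library's hepatocytes lay almost wholly in its own cluster, and cell state and library cannot be told apart.

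Defence genes were higher in hepatocytes for 10 of 11 measured, beside 39.4% of all genes. Gclm had 96.3 and 607 CPM (log2 2.66, interval 2.37 to 2.96), Gclc 64.5 and 142 CPM, and Gss 36.2 and 99.5 CPM. Nfe2l2 had 77.8 and 194 CPM (log2 1.32, interval 0.97 to 1.68), Txnrd1 53.9 and 124 CPM, Srxn1 44.2 and 89.2 CPM, and Aifm2 7.95 and 33.2 CPM. Gsr stood at 93.7 and 158 CPM and Keap1 at 46.8 and 73.3 CPM. The exception was Slc3a2, which was lower at 127 and 42.2 CPM (log2 -1.59, interval -2.05 to -1.15). Slc7a11 had 18 and 15 UMIs, too few to be counted, in 4 cells of each library.

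Iron genes were higher in hepatocytes for 6 of 7 measured, where 39.4% of all genes were higher. Among them were Ncoa4 at 39.8 and 67.7 CPM and Aco1 at 23.9 and 78.1 CPM, beside ferritin and Hmox1. Steap4 had 8 UMIs (7.07 CPM) in control and 574 (397 CPM) in inhibitor cells, but 475 of the 574 (82.8%) lay in 5 of 146 cells. Its thinned share was 0.493% and 8.59%, with B cells at 0.169% and 0.289%. Hmox1 was wider spread, with a UMI in 15 of 223 control and 73 of 146 inhibitor hepatocytes, and its thinned share was 0.493% and 19.5%. Of the lipid enzymes, Acsl4 was higher (37.1 and 88.5 CPM, log2 1.25, interval 0.74 to 1.79) and Sat1 lower (357 and 198 CPM, log2 -0.85, interval -1.07 to -0.63).

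The related lists were counted in the same cells, where 63.05% of all genes passed the fold in either direction. Of other antioxidant genes 14 of 20 were higher and 1 lower, 75.0% in all, with a median log2 ratio of 1.75. Of other iron genes 11 of 20 were higher and 2 lower, 65.0% in all and close to the share of all genes, with a median of 0.64. Of other lipid peroxidation genes 3 of 8 were higher and 3 lower, with a median of -0.09. The 3 largest were Hspb1, a small heat shock protein that limits iron uptake (7.07 and 545 CPM), Me1, which makes NADPH (23.0 and 156 CPM), and Gpx1, a peroxidase for soluble peroxides (609 and 3592 CPM). Alox5ap (209 and 64.3 CPM), the desaturase Fads2 (35.3 and 11.7 CPM) and transferrin, Trf (5028 and 2356 CPM), were lower.

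Several measures differed between the hepatocytes of the libraries beside these genes. The median mitochondrial share was 11.3% in the control and 1.03% in the inhibitor library, and the median depth 3626 and 4093.5 UMIs. Hepatocyte markers summed to 36690 and 37800 CPM with all 9 detected in both, T cell markers to 2660 and 115 CPM, erythroid markers to 10320 and 2593 CPM, and neutrophil markers to 119 and 1103 CPM. The median log2 ratio of all genes was 0.29, and with that median set to 0, 14 members were higher and 3 lower. Gsr (0.46), Keap1 (0.35) and Ncoa4 (0.48) then no longer passed the fold. Of the 19 hepatocyte values past the fold, 12 changed sign in at least 1 of the other ways of choosing cells, and Nfe2l2, Keap1, Acsl4, Fth1, Steap4, Aco1 and Hmox1 did not in any that was run. The part of these measures in the member differences was not tested.

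**Figure D4:**
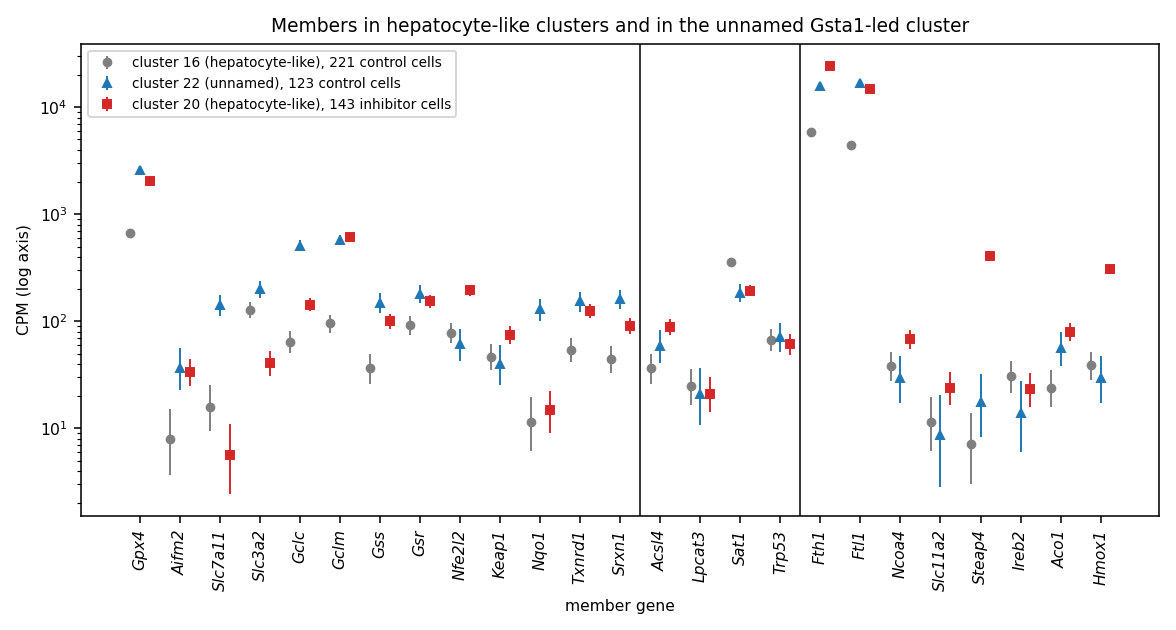
CPM with exact Poisson 95% intervals, on a log axis, of the 25 members with at least 50 UMIs over hepatocyte-like cluster 16 (221 control cells, grey circles), unnamed cluster 22 (123 control cells, blue triangles) and hepatocyte-like cluster 20 (143 inhibitor cells, red squares), with levels of 0 left out. Cluster 22 lies near cluster 20 for Gpx4 and Gclm, above it for Gclc, Nqo1 and Slc7a11, and near cluster 16 for Nfe2l2 and Hmox1.

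A group of 124 shallow cells, 123 of them from the control library, stayed unnamed although 7 of 9 hepatocyte markers were raised in them, as were several endothelial markers, because their median of 1111 UMIs was far below their library's 3951 and no fixed hepatocyte marker was among their leading genes. They were led by Gsta1, Gsta2, Gpx2 and Cbr3, which are detoxifying enzymes. Their Gclc level was 509 CPM (interval 452 to 571), against 64.6 CPM in control cluster 16 and 143 CPM in inhibitor cluster 20. Nqo1 had 129 CPM in them, against 11.5 and 14.8 CPM, and Slc7a11 142 CPM against 15.9 and 5.62 CPM. Gpx4 stood at 2605 CPM, against 662 and 2065 CPM. Nfe2l2 transcripts did not follow, at 61.2 CPM against 77.9 and 196 CPM, and Hmox1 had 29.7 CPM against 38.9 and 305 CPM. When these cells were added to the hepatocytes, Gclc had a log2 ratio of -0.60, Gpx4 of 0.63, Gclm of 1.23, Fth1 of 1.38 and Ftl1 of 0.78, so the hepatocyte values depend on which control cells are compared. A reversed Gclc ratio was the only change of sign among the 19 named hepatocyte values in that setting.

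The smaller classes carried fewer cells and wider intervals. Macrophages (626 and 56 cells) had 5 of 24 members higher and 1 lower, beside 13.0% and 12.5% of all genes. Slc40a1 was higher in them, at 17.5 and 60.9 CPM (log2 1.80, interval 1.15 to 2.40), opposite in direction to Kupffer cells, and that difference was not tested. The macrophages' own markers summed to 34950 and 18810 CPM, nonclassical monocyte markers to 270.5 and 588.5 CPM and erythroid markers to 1152 and 176.5 CPM, and their part in the macrophage differences was not tested. Txnrd1 (46.3 and 114 CPM), Slc7a11 (52.3 and 93.3 CPM) and Slc11a1 (179 and 276 CPM) were higher as well. Nonclassical monocytes had 2 of 14 higher and none lower (11.1% and 5.08% of all genes), Hmox1 and, with an interval that included no difference, Ncoa4.

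Plasmacytoid dendritic cells had 2 of 12 higher and 1 lower (4.62% and 5.08% of all genes), with Gsr at 42.1 and 69.6 CPM and Nfe2l2 at 53.8 and 89.5 CPM. Type 1 conventional dendritic cells had 1 of 14 higher and 1 lower (6.26% and 8.63%), Gsr at 17.7 and 31.4 CPM and Fth1 at 3266 and 2060 CPM. Cycling cells had 1 of 10 higher and 2 lower (7.9% and 4.67%), with Gsr at 36.0 and 68.9 CPM, Gclm at 84.1 and 40.6 CPM and Tfrc at 66.7 and 23.0 CPM, and their erythroid markers summed to 25770 and 162.5 CPM. An unnamed cluster led by Ccl12, Cxcl9 and Cxcl10 (116 and 53 cells) had 2 of 11 higher and 2 lower (26.0% and 12.1%). In it Gsr stood at 93.5 and 597 CPM (log2 2.67, interval 2.35 to 3.01) and Fth1 at 10570 and 3897 CPM (log2 -1.44, interval -1.51 to -1.37). Of the 13 classes, Gsr was measured in 12 and passed the fold as higher in 5, with intervals that left out no difference. They were cDC2, both of these smaller dendritic classes, cycling cells and hepatocytes.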

How the data were processed

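The authors deposited raw UMI counts per gene and cell barcode for each library, made with Cell Ranger 5.0.1 per the file headers. The submitters' processing notes also name R 3.0, Seurat 3 and the build mm9, and the deposited counts carry no coordinates, so positions printed here are those of GRCm38. Cells with at least 300 genes, 500 UMIs and at most 25% mitochondrial UMIs were kept. That left out 1506 control and 917 inhibitor barcodes under the gene minimum and 2204 and 885 over the mitochondrial limit. Scored doublets, 0.8% per 1000 cells, were removed per library (374 and 717). Total deposited depth was 53378693 and 68074929 UMIs.

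Both libraries were clustered together (2000 variable genes without the members and 72 related genes, 30 principal components, 20 neighbours, Leiden at resolution 1, the best of 10 starts, a choice made after seeing that 1 start was unstable). A cluster took the name with the largest share of its fixed markers raised at least 2-fold, and at least 3 raised. It stayed unnamed where its 10 leading genes held more markers of another type, or none of its own at a median depth under 1/3 of its library's. UMIs were summed per class and library and divided by all UMIs of that class. CPM intervals are exact Poisson, ratios exact conditional binomial and shares Clopper-Pearson, all at 95% and for counting error only. A class at 0 is read against 3 UMIs. The calculations were tested on simulated counts.

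Named in each class were all members past 1.5-fold with at least 50 UMIs and an interval that leaves out no difference, and up to 3 related genes per direction. Other members that are named were chosen after their values were seen. The members, lists and markers were chosen with earlier results of these data known. Alternatives changed the doublet, mitochondrial and gene limits, the resolution, the UMI minimum, the fold, the scaling and the thinning depth. Tools were Python 3.11.15, numpy 2.4.6, scipy 1.17.1, scikit-learn 1.9.0, pandas 2.3.3, igraph 0.11.9 and leidenalg 0.10.2.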

Additional observations from a re-analysis of the deposited data

Results flagged for a closer look

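Among members past 1.5-fold in the 8 compared classes, 4 genes differed in opposite directions between classes, and none of these differences between classes was tested. The ferritin heavy chain Fth1 had a log2 ratio of -0.78 in classical monocytes and -0.84 in neutrophils, and 2.03 in hepatocytes. Ncoa4, the receptor that sends ferritin to lysosomes, stood at -0.83 in Kupffer cells and 0.77 in hepatocytes. The subunits of glutamate-cysteine ligase did the same in neutrophils and hepatocytes: Gclc was at -1.58 and 1.14, and Gclm at -1.52 and 2.66. The hepatocyte value is the higher one for each of these genes. With the 5 smaller classes counted, Gpx4, Tfrc and Slc40a1 also passed the fold in both directions with intervals that left out no difference. The hepatocyte value compares separate clusters in the 2 libraries, and those of Gclc, Gclm and Ncoa4 changed sign under another choice of cells.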

How the results depend on the processing

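No paired analysis was possible because each group is 1 library. Of 442 alternative values of the 43 named ratios, 311 lay within the counting interval of the reported value. Another 110 kept their sign but lay outside that interval, nearer to or further from no difference. The other 21 changed sign, 20 of them in hepatocytes. The cause was not tested. With removed doublets doubled, log2 ratios in hepatocytes were -0.16 for Gpx4, -1.24 for Gclc, -0.36 for Gss, -0.008 for Gsr, -1.43 for Srxn1 and -1.17 for Ncoa4, on 128 control and 64 inhibitor cells, and -0.29 for Slc7a11 in Kupffer cells. With no mitochondrial limit they were -0.55 for Gpx4, -0.28 for Aifm2, 0.71 for Slc3a2, -1.85 for Gclc, -0.047 for Gclm, -0.56 for Gss, -0.19 for Gsr, -0.35 for Txnrd1, -1.18 for Srxn1, 0.31 for Sat1 and -0.40 for Ftl1. At resolution 0.5, Gclc was at -0.98 and Srxn1 at -0.32. Adding the unnamed Gsta1-led cluster gave -0.60 for Gclc. The hepatocyte ratio of Fth1 ranged from 0.34 to 1.99 and that of Hmox1 from 2.55 to 4.99.

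Counts of members past the fold moved by over 1.5 times as follows. A minimum of 20 UMIs gave 2 in T cells, 8 in neutrophils, 2 in B cells and 2 in NK cells or ILC1. A minimum of 200 UMIs gave 0 in T cells, 2 in neutrophils, 1 in cDC2, 4 in Kupffer cells, 0 in NK cells or ILC1 and 12 in hepatocytes. A fold of 2 gave 2 in classical monocytes, 2 in neutrophils, 1 in cDC2, 3 in Kupffer cells and 0 in NK cells or ILC1. With no doublets removed there were 5 in B cells and 2 in NK cells or ILC1, and with doublets doubled 6 in hepatocytes. With no mitochondrial limit there were 11 in classical monocytes, 2 in T cells and 10 in hepatocytes. At resolution 0.5 there were 3 in classical monocytes and 2 in T cells. With libraries clustered apart there were 9 in classical monocytes, 2 in T cells and 0 in NK cells or ILC1. T cells had 2 with the all-gene median set to 0 and 2 with 600 genes per cell, and 2, 0, 3, 0 and 2 within clusters 1, 4, 6, 8 and 10. NK cells or ILC1 had 0 within clusters 14 and 17. Thinned to 500 UMIs, the inhibitor-to-control ratio of shares was 0.679 for Slc40a1 in Kupffer cells (0.905 at 1000) and 1.19 for Hmox1 in macrophages (0.965 at 1000). At 2000 UMIs it was 1.002 for Hmox1 in classical monocytes (0.910 at 1000).

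Hepatocytes were not run at a mitochondrial limit of 10% (2 control cells left) or at 600 genes per cell (31 left), and cDC2 not with no doublets removed or at resolution 0.5. Depth limits Aifm2, Chac1, Tfrc, Srxn1 and Slc11a2, whose counts in the compared classes are low. The 1 library per group leaves the spread between mice unknown.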

Other observations

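Outside the compared classes, the 27 control cells that resembled duct or tumour epithelium (1 inhibitor cell did) held Gpx4 at 1251 CPM (715 UMIs), above the 661 CPM of control hepatocytes, and Gclm at 444.5 CPM. Erythroid-like cells held 64 control Gpx4 UMIs (165 CPM). Plasma cells (47 control and 17 inhibitor cells) had the most Slc3a2 of the small classes, at 525 CPM in control and 363 CPM in inhibitor cells, while their Fth1 level of 644 and 475 CPM was the lowest among the classes in which it was measured. Mature dendritic cells (49 and 11 cells) had 142 CPM of Gclc and 122 CPM of Slc7a11 in the control library, on 57 and 49 UMIs. In the unnamed cluster led by Ccl12 and Cxcl9, the related genes Lcn2 (10.1 and 116.8 CPM), Fbxl5, an iron-sensing ubiquitin ligase subunit (14.3 and 116.8 CPM), and Mgst1 (65.7 and 495.7 CPM) were higher in inhibitor cells.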
